A study of Mus musculus with 20 samples.

Results

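The 53 genes described here encode the enzymes, transporters and regulators that carry glucose and fatty acids into mitochondrial energy metabolism. They comprise 19 genes of glycolysis, 16 genes of pyruvate entry and the tricarboxylic acid (TCA) cycle, and 18 genes of fatty acid oxidation. The rule lists them by name and uses no measured value, and they are 53 of the 48795 genes of the deposited table. None of them lies on chromosome 16, which carries the Dp1Tyb duplication, so the duplication adds no copy of any of them. All 53 passed the filter on low values, a mean normalized count of at least 10.

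RNA was sequenced from 20 whole hearts of mouse embryos at E13.5, an embryonic day on which heart septation is still under way. The Dp1Tyb mouse is a model of Down syndrome that carries the duplication Dp(16Lipi-Zbtb21)1TybEmcf, an extra copy of the stretch of chromosome 16 that runs from Lipi to Zbtb21. There were 10 WT and 5 Dp1Tyb hearts. A further 5 had the label Dp1TybDyrk1a+/+/-, which is the same duplication with the null allele Dyrk1a tm1Mla in place of 1 of the 3 copies of Dyrk1a, a gene for a protein kinase. These mice descend from a recombinant pup and were kept as a strain of their own. The duplication and the null allele are carried in every cell of the embryo, so the heart is not the only organ that carries them. WT hearts were littermates of either mutant group, with 5 WT littermates per mutant group in the series design. Because the labels do not tie a WT heart to a litter, all 10 WT hearts entered both comparisons with WT, which therefore share their controls. The embryos' sex is not in the labels, and 3 of the 53 genes (Pgk1, Pdha1 and Idh3g) are X-linked.

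Glycolysis splits glucose into pyruvate in the cytosol, and lactate dehydrogenase turns pyruvate into lactate where it is not passed on to mitochondria. The pyruvate dehydrogenase complex feeds pyruvate into the TCA cycle, and fatty acids enter the same cycle after the carnitine shuttle and the beta-oxidation enzymes have shortened them to acetyl-CoA. The fetal heart relies largely on glycolysis and lactate, and the switch to fatty acids as the main fuel comes around birth.

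Each value below is a deposited log2 normalized count, and a difference between groups is a difference of mean log2 values from limma, with its standard error (SE) and an adjusted P-value over all 15304 genes tested. Depth is unknown, because the table holds no read totals. Dyrk1a itself had a mean log2 value of 11.37 in WT hearts (11.28 to 11.43), 11.69 in Dp1Tyb hearts (11.65 to 11.75) and 11.76 in Dp1TybDyrk1a+/+/- hearts (11.70 to 11.85). It was higher than in WT by 0.32 in Dp1Tyb hearts (adjusted P = 6.22e-08) and by 0.39 in Dp1TybDyrk1a+/+/- hearts (adjusted P = 2.18e-09), and the 2 mutant groups did not differ beyond the threshold (-0.07, adjusted P = 0.209). The null allele lacks a pair of internal exons, so RNA from the rest of it can still count towards the gene, and these gene-level values do not check the label Dp1TybDyrk1a+/+/-. All 8 cardiomyocyte markers and all 6 fibroblast and cushion markers passed the filter on low values.

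A pair of libraries stood apart from the rest. With weights fitted per heart, WT heart 6 received a weight of 0.258 and Dp1TybDyrk1a+/+/- heart 2 a weight of 0.0941, against 0.708 to 1.79 for the other 18 hearts. Both lay below all other 18 hearts in 14 of the 53 genes (26.4%) against 13.7% of all genes tested, and above them in 3 (5.66%) against 12.9%. Leaving both out was an alternative chosen after the values of Pgk1, Eno1b and Gapdh had been seen, and counts of members past the threshold and pathway medians are given with and without them.

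The promoters of 4 genes are printed because the results turn on these genes. Eno1 was the only member past the threshold in any comparison, Aldoc had the largest positive difference of a glycolysis gene between Dp1Tyb and WT hearts, Pgk1 had the largest spread between hearts, and Ppargc1a had the largest differences in the fatty acid group between Dp1Tyb hearts and either other group. Each sequence is the 250 bases before 1 RefSeq transcription start on GRCm38.p6, 5′ to 3′ on the strand of the gene, with capitals marking ACGTG or GCGTG, the core of a hypoxia response element, on either strand.
Eno1 (chr4:150236458-150236707, plus strand): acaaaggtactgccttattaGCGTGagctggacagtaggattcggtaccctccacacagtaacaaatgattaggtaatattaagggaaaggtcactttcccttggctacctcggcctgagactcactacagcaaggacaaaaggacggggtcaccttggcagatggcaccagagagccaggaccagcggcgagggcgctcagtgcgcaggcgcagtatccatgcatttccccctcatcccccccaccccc
Aldoc (chr11:78322823-78323072, plus strand): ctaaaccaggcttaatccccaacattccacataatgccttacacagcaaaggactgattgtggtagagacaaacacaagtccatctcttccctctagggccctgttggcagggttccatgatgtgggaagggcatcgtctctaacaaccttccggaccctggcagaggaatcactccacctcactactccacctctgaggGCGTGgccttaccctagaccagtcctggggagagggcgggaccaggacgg
Pgk1 (chrX:106186850-106187099, plus strand): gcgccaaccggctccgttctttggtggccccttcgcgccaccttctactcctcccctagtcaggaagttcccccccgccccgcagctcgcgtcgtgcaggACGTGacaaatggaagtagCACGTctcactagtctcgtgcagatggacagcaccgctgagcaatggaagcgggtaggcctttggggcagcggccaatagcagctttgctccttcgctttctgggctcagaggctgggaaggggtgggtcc
Ppargc1a (chr5:51567726-51567975, minus strand): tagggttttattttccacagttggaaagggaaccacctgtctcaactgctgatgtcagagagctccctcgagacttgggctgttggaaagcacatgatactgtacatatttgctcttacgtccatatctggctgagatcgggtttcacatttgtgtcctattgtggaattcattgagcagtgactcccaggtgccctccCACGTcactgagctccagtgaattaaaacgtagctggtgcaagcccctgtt

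The Eno1 and Aldoc windows each held 1 GCGTG, the Pgk1 window held ACGTG once on each strand, and the Ppargc1a window held ACGTG once on the reverse strand. RefSeq promoters were matched for 49 of the 53 genes (not for Acaa2, Cpt1b, Slc2a4 and Idh3a). At least 1 of these 5-base cores was found in some promoter window of 15 of 18 glycolysis genes (83.3%), 10 of 15 pyruvate and TCA genes (66.7%) and 9 of 16 fatty acid genes (56.2%), against 11226 of 27025 genes overall (41.5%). Counted by window, the share was 46 of 67 for the members (68.7%) and 38.6% of all windows of the same length. The estrogen-related receptor element, searched on both strands as TNAAGGTCA (which takes in TCAAGGTCA), was in 0 of the 67 windows and in 1.14% of all windows. Both 5-base cores contain CG, and members and all genes were not matched for the base content of their promoters. These matches describe letters only.

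**Figure D1:**
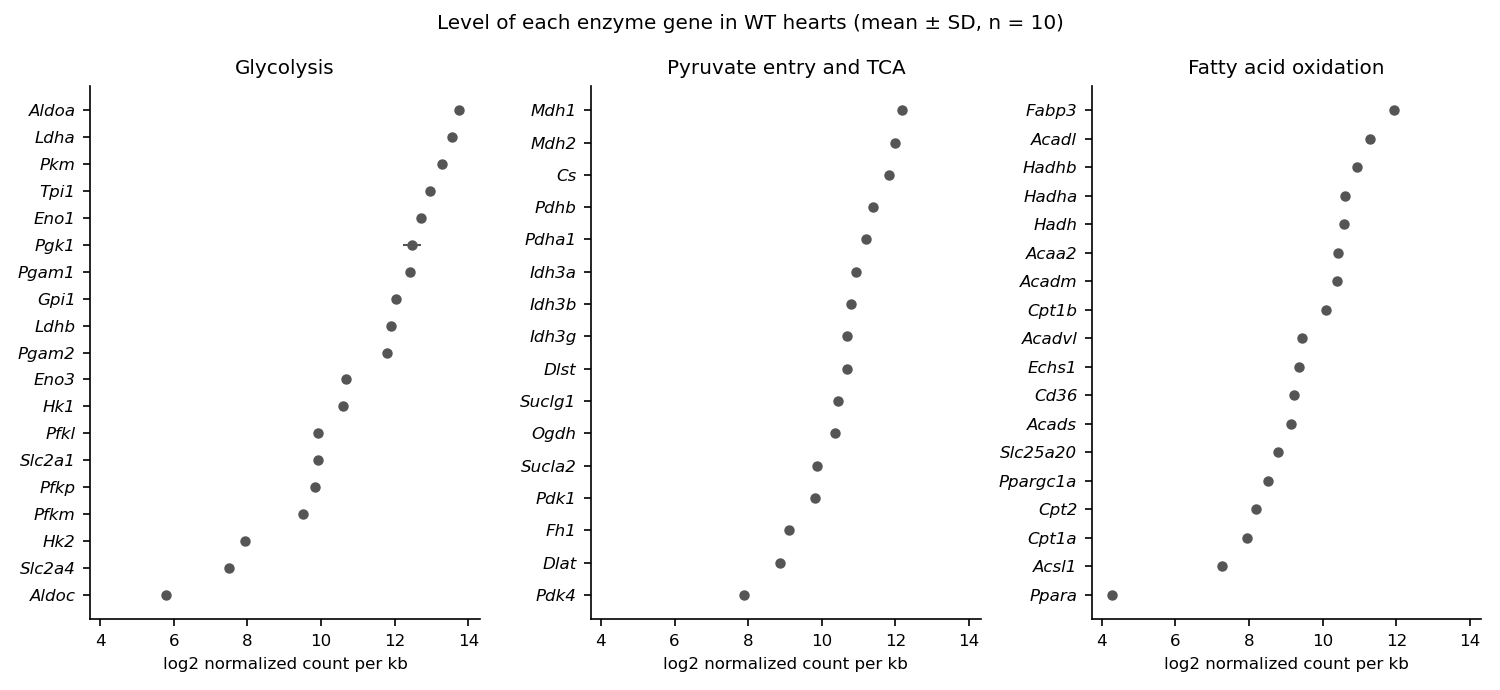
Mean log2 normalized count per kilobase of transcript in the 10 WT hearts, with SD (x axis, log2 scale), for each of the 53 genes (y axis), by pathway (panels). Aldoa, Ldha and Pkm are highest with 13.75, 13.57 and 13.30, and Ppara is lowest with 4.28.

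In WT hearts the glycolysis genes stood highest. Levels per kilobase of transcript allow genes to be compared with each other, and on that log2 scale the medians were 11.79 for glycolysis, 10.68 for pyruvate entry and TCA, and 9.40 for fatty acid oxidation. Of the 10 highest members, 8 were glycolytic: Aldoa (13.75), Ldha (13.57), Pkm (13.30), Tpi1 (12.95), Eno1 (12.72), Pgk1 (12.47), Pgam1 (12.43) and Gpi1 (12.05). The other 2 were the malate dehydrogenases Mdh1 (12.19) and Mdh2 (11.99). The highest gene of the fatty acid group was Fabp3, the heart fatty acid binding protein, with 11.95. Ppara, the nuclear receptor that drives fatty acid genes, was the lowest of all with 4.28, and Aldoc, the brain form of aldolase, was the lowest glycolysis gene with 5.78. Within WT hearts the SD of a gene's log2 value was 0.0782 in the median glycolysis gene, 0.0635 in the TCA group and 0.0761 in the fatty acid group, and neighbours closer than that, such as Pgk1 and Pgam1 or Gpi1 and Mdh2, do not differ beyond their spread.

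Paralogues of 1 enzyme differed widely in level. Slc2a1, the basal glucose transporter, stood at 9.92 per kilobase against 7.51 for Slc2a4, the insulin-responsive transporter. Hk1, the constitutive hexokinase, stood at 10.59 against 7.94 for Hk2, the hexokinase of adult muscle. Cpt1b, the muscle form of the rate-limiting carnitine palmitoyltransferase, stood at 10.10 against 7.95 for Cpt1a, the liver form. Ldha, which makes the subunit favoured in anaerobic tissue, stood at 13.57 against 11.89 for Ldhb, the subunit that predominates in adult heart. Pdk1 stood at 9.82 against 7.90 for Pdk4, both of them kinases that switch off pyruvate dehydrogenase.

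**Figure D2:**
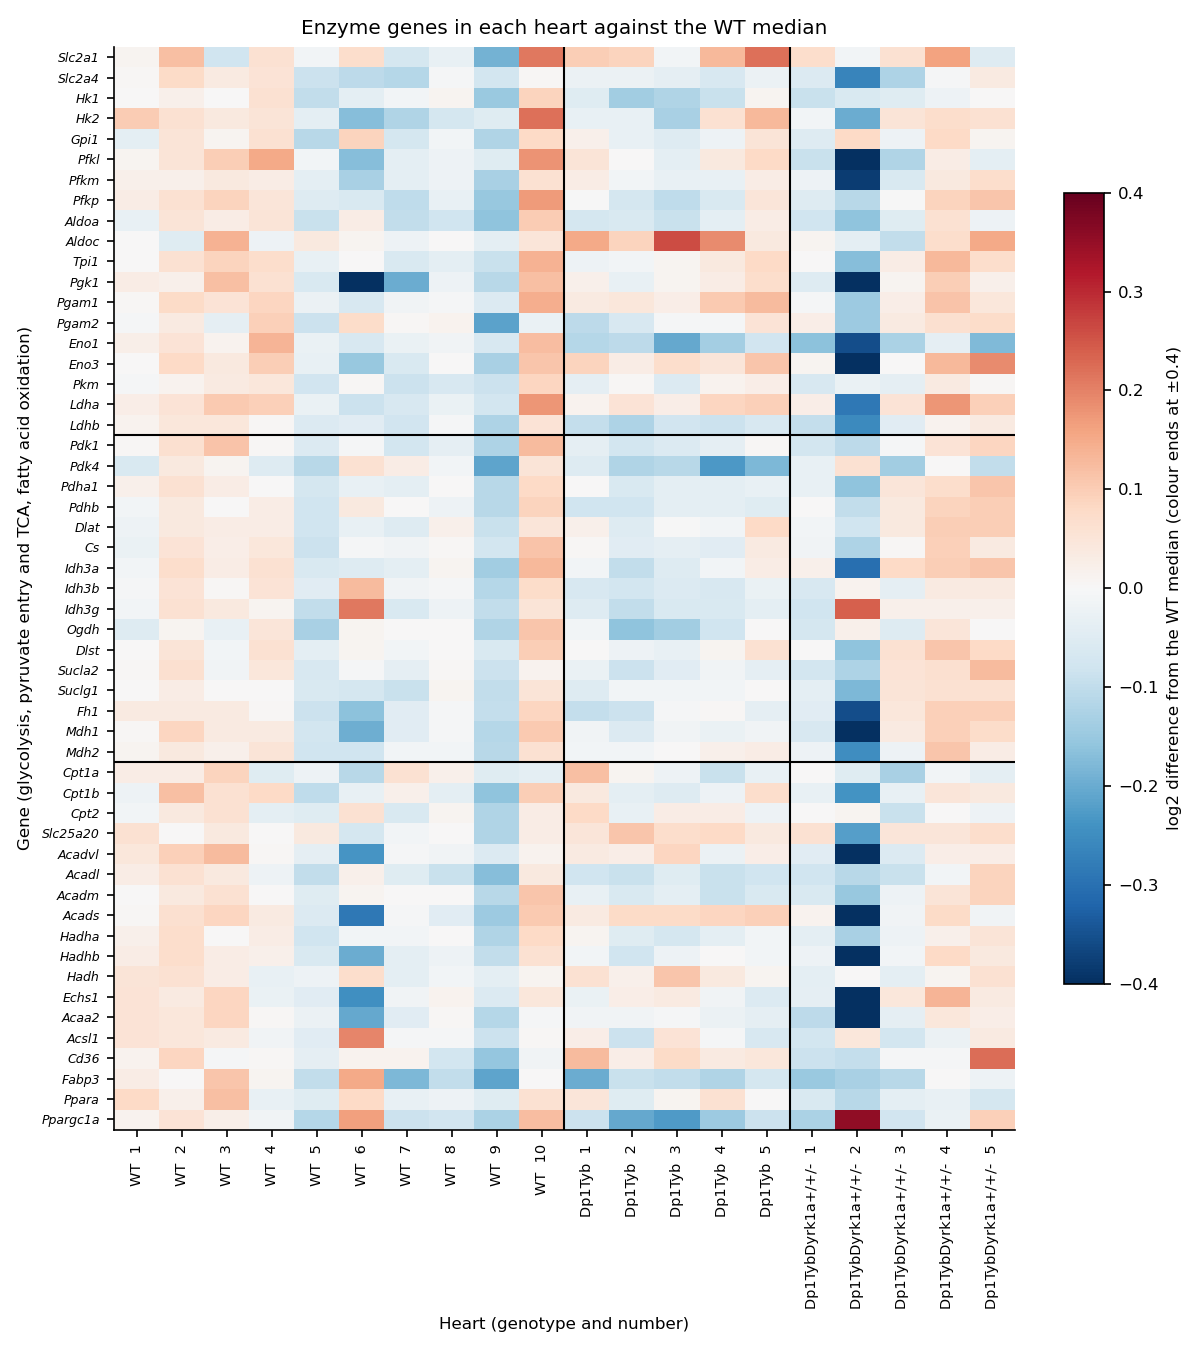
Deviation of each of the 53 genes (rows, set apart by pathway) from its WT median, in log2 units (colour), in each of the 20 hearts (columns, by genotype). Dp1TybDyrk1a+/+/- heart 2 is below the WT median in most rows, with a median deviation of -0.15 and a range from -1.31 to 0.36.

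Between genotypes the differences were small throughout on the deposited log2 scale, which may understate them. All genes tested, whose shares are given beside the members, include genes of the duplication, and the members include none. In Dp1Tyb against WT hearts 0 of the 53 genes passed an adjusted P of 0.05, where 3.08% of all genes tested did (limma), and 5 members had an unadjusted P under 0.05 against 15.6% of all genes. Of these 5, 1 was higher and 4 were lower, against 7.77% and 7.8% of all genes. In Dp1TybDyrk1a+/+/- against WT hearts 1 member passed, Eno1, where 0.712% of all genes did and 0.0849% did as lower. An unadjusted P under 0.05 was found in 3 members against 9.64% of all genes, with 0 higher and 3 lower against 5.02% and 4.61%. In Dp1Tyb against Dp1TybDyrk1a+/+/- hearts 0 members passed where 1.16% of all genes did, and 5 had an unadjusted P under 0.05 against 18.5%, with 3 higher and 2 lower against 8.54% and 10%. The absolute log2 difference was under 0.1 in 49, 49 and 46 of the 53 genes, and the largest was 0.15, 0.19 and 0.26 in the 3 comparisons in the same order. The median SE of a difference was 0.0426, and it was at most 0.096 for the 52 genes other than Pgk1. Without WT heart 6 and Dp1TybDyrk1a+/+/- heart 2 the members past the threshold numbered 2 (Aldoc and Eno1), 1 (Eno1) and 0, where the shares of all genes were 7.7%, 1.39% and 3.96%. The hearts are whole organs, so a smaller number of cells of a type and less RNA per cell cannot be told apart.

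**Figure D3:**
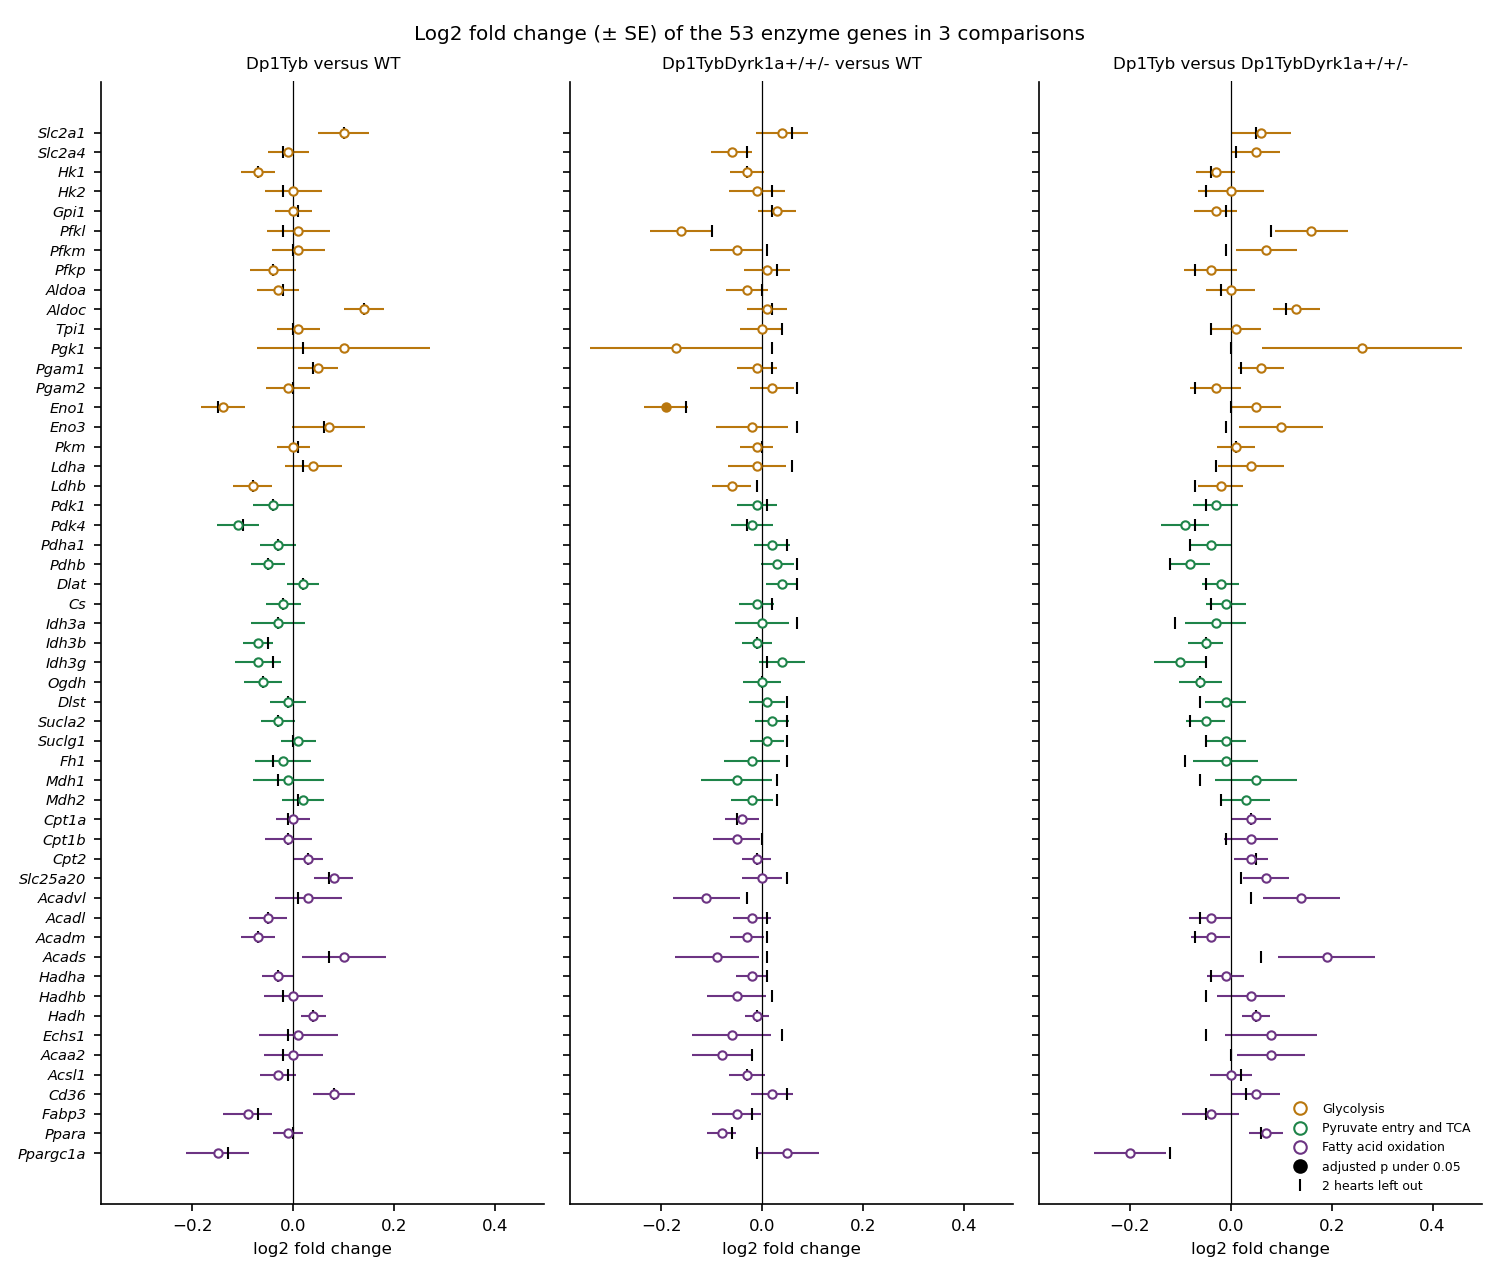
Log2 difference between groups with its SE (x axis) for the 53 genes (y axis) in the 3 comparisons (panels), with filled points for an adjusted P under 0.05 and a vertical tick for the value without WT heart 6 and Dp1TybDyrk1a+/+/- heart 2. Eno1 is the only filled point, at -0.19 in Dp1TybDyrk1a+/+/- versus WT, and Pgk1 has the widest bars.

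The glycolysis genes had medians close to 0 in all 3 comparisons. The median log2 difference over its 19 genes was 0.00468 in Dp1Tyb against WT, -0.0116 in Dp1TybDyrk1a+/+/- against WT and 0.0444 in Dp1Tyb against Dp1TybDyrk1a+/+/-, beside -0.00187, -0.003 and 0.00278 for all genes tested. The number of its genes below 0 was 9, 14 and 5 of 19 in the same order, beside 51.5%, 52.6% and 48.0% of all genes. Without the pair of libraries that stood apart, the medians were 0.00104, 0.0202 and -0.013, so the sign in both comparisons with Dp1TybDyrk1a+/+/- hearts depended on them.

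At glucose entry, Slc2a1 ranged from 11.87 to 12.27 in WT hearts (median 12.06). Its values were 12.16, 12.15, 12.05, 12.19 and 12.28 in Dp1Tyb hearts and 12.13, 12.05, 12.12, 12.22 and 12.01 in Dp1TybDyrk1a+/+/- hearts. The 3 groups overlap, and the Dp1Tyb against WT difference of 0.10 ± 0.0511 (SE) had an adjusted P of 0.38 (limma). Slc2a4 ranged from 8.80 to 8.99 (median 8.92) in WT hearts, with differences from WT of -0.01 in Dp1Tyb hearts (adjusted P = 0.929) and -0.06 in Dp1TybDyrk1a+/+/- hearts (adjusted P = 0.635). Of the hexokinases, which trap glucose in the cell, Hk1 had a mean of 12.69 ± 0.0689 (SD, n = 10) in WT, 12.62 ± 0.0613 (n = 5) in Dp1Tyb and 12.66 ± 0.0383 (n = 5) in Dp1TybDyrk1a+/+/- hearts. Hk2 had a mean of 10.90 in all 3 groups.

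Phosphofructokinase commits glucose to glycolysis and is built of liver (Pfkl), muscle (Pfkm) and platelet (Pfkp) subunits. Pfkl ranged from 11.77 to 12.12 in WT hearts (median 11.94). It read 11.99, 11.94, 11.90, 11.98 and 12.02 in Dp1Tyb hearts and 11.85, 11.47, 11.82, 11.97 and 11.90 in Dp1TybDyrk1a+/+/- hearts. Only heart 2 of the last group lay below every WT heart. The difference of -0.16 ± 0.0624 (SE) from WT had an adjusted P of 0.403 (limma), and it was -0.10 without the 2 libraries (adjusted P = 0.248). Pfkm had differences of 0.01 and -0.05 from WT in Dp1Tyb and Dp1TybDyrk1a+/+/- hearts (adjusted P = 0.937 and 0.764), and Pfkp had -0.04 and 0.01. Without the 2 libraries the Pfkm difference in Dp1TybDyrk1a+/+/- hearts was 0.01.

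Aldolase cleaves the sugar into 2 trioses. Aldoc ranged from 7.20 to 7.39 in WT hearts (median 7.25), with heart 3 as the highest, and it read 7.40, 7.34, 7.51, 7.44 and 7.29 in Dp1Tyb hearts and 7.26, 7.21, 7.15, 7.32 and 7.40 in Dp1TybDyrk1a+/+/- hearts. Of the Dp1Tyb hearts, 3 lay above every WT heart. The difference of 0.14 ± 0.04 (SE) between Dp1Tyb and WT missed the threshold over all genes (limma adjusted P = 0.0694) and passed it without the 2 libraries (adjusted P = 0.0457). Within lanes 3, 6 and 7 that difference was 0.0979, 0.18 and 0.128. Aldoc was described after its values had been seen, since it had the smallest adjusted P of all members in this comparison. Aldoa, the main aldolase of muscle, had differences of -0.03 from WT in both mutant groups.

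Pgk1, phosphoglycerate kinase, makes the first ATP of the pathway, and it varied more between hearts than any other member. It read 12.67 in WT heart 6 and 12.11 in Dp1TybDyrk1a+/+/- heart 2, against 13.22 to 13.54 in the other 18 hearts. The genotypes overlapped among those 18. The differences of 0.10, -0.17 and 0.26 in the 3 comparisons became 0.02, 0.02 and 0.00 without the 2 libraries, and none passed the threshold either way (adjusted P = 0.853, 0.767 and 0.479 with all hearts, limma). Pgk1 has 2 processed pseudogenes, Pgk1-rs7 and Gm5537, that match its transcript at 100% identity over 1255 and 1252 bases, so reads can be split between them. Pgk1-rs7 went the other way, with 11.75 in WT heart 6 and 11.91 in Dp1TybDyrk1a+/+/- heart 2 against 10.64 to 11.30 in the others. Gm5537 did not, with 11.94 and 11.67 in the same 2 hearts against 11.72 to 12.07. Both hearts lay above the other 18 in 12.9% of all genes tested. Whether reads were split between these genes was not tested. The log2 of the summed normalized counts of the 3 genes was 13.76 and 13.49 in the pair, against 13.91 to 14.17, so the sum was also lowest there but by less.

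Enolase makes phosphoenolpyruvate, and Eno1, the ubiquitous form, was the 1 member that passed the test. It ranged from 13.84 to 14.04 in WT hearts (median 13.90). Dp1Tyb hearts read 13.79, 13.80, 13.70, 13.77 and 13.83, all below every WT heart. Dp1TybDyrk1a+/+/- hearts read 13.74, 13.55, 13.78, 13.87 and 13.73, and 4 of the 5 lay below every WT heart. Eno1 was lower in hearts labelled Dp1TybDyrk1a+/+/- than in WT hearts by 0.19 ± 0.0436 (SE) on the log2 scale (limma adjusted P = 0.0468). In Dp1Tyb hearts the difference of -0.14 ± 0.0436 missed the threshold (adjusted P = 0.0886), although hearts of both groups did not overlap, which holds for 1.12% of all genes tested in that direction. The mutant groups differed by 0.05 ± 0.0503 (adjusted P = 0.648).

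The Eno1 call sat close to the threshold. Without WT heart 6 and Dp1TybDyrk1a+/+/- heart 2 the difference was -0.15 in both comparisons with WT, with adjusted P = 0.00977 for Dp1Tyb and 0.0443 for Dp1TybDyrk1a+/+/-. With any 1 heart left out it passed in 4 of 20 fits for Dp1TybDyrk1a+/+/- (adjusted P from 0.0123 to 0.109) and in 1 of 20 for Dp1Tyb (0.0204 to 0.248). It also missed the threshold for Dp1TybDyrk1a+/+/- with lane as a covariate (adjusted P = 0.0752), median centring (0.052) and the hearts of the 2 genotypes only (0.122). Lane 7 holds 3 of the 5 Dp1TybDyrk1a+/+/- hearts and 2 of the 10 WT hearts. The differences within lanes 3, 6 and 7 were -0.194, -0.159 and -0.227 for Dp1TybDyrk1a+/+/- and -0.112, -0.157 and -0.168 for Dp1Tyb. Eno1 shares 99.5% of 1736 bases with Eno1b and 99.6% of 1302 bases with the pseudogene Gm4735, so single reads can be assigned to either. The log2 of the 3 genes' summed normalized counts was 13.97 in WT, 13.83 in Dp1Tyb and 13.78 in Dp1TybDyrk1a+/+/- hearts, the same differences of -0.14 and -0.19 as for Eno1 alone. Eno3, the muscle enolase, had a mean of 11.48 in WT, 11.55 in Dp1Tyb and 11.45 in Dp1TybDyrk1a+/+/- hearts (adjusted P = 0.696 and 0.935 against WT). Its difference between the mutant groups, 0.10, was -0.01 without the 2 libraries.

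The isomerases Gpi1 and Tpi1 and the mutases Pgam1 and Pgam2, which rearrange intermediates of the pathway, had differences between -0.03 and 0.06 in the 3 comparisons, and between -0.07 and 0.07 without the 2 libraries. The last steps also differed little between genotypes. Pkm, pyruvate kinase, ranged from 14.52 to 14.69 in WT hearts, and both mutant groups were within 0.01 of the WT mean of 14.59. Ldha had a mean of 14.23 in WT, 14.27 in Dp1Tyb and 14.23 in Dp1TybDyrk1a+/+/- hearts. Ldhb ranged from 12.39 to 12.57 in WT hearts (median 12.52) and read 12.42, 12.39, 12.44, 12.43 and 12.45 in Dp1Tyb hearts. The Dp1Tyb values lie in the lower part of the WT range, with a difference of -0.08 ± 0.0385 (adjusted P = 0.362).

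**Figure D4:**
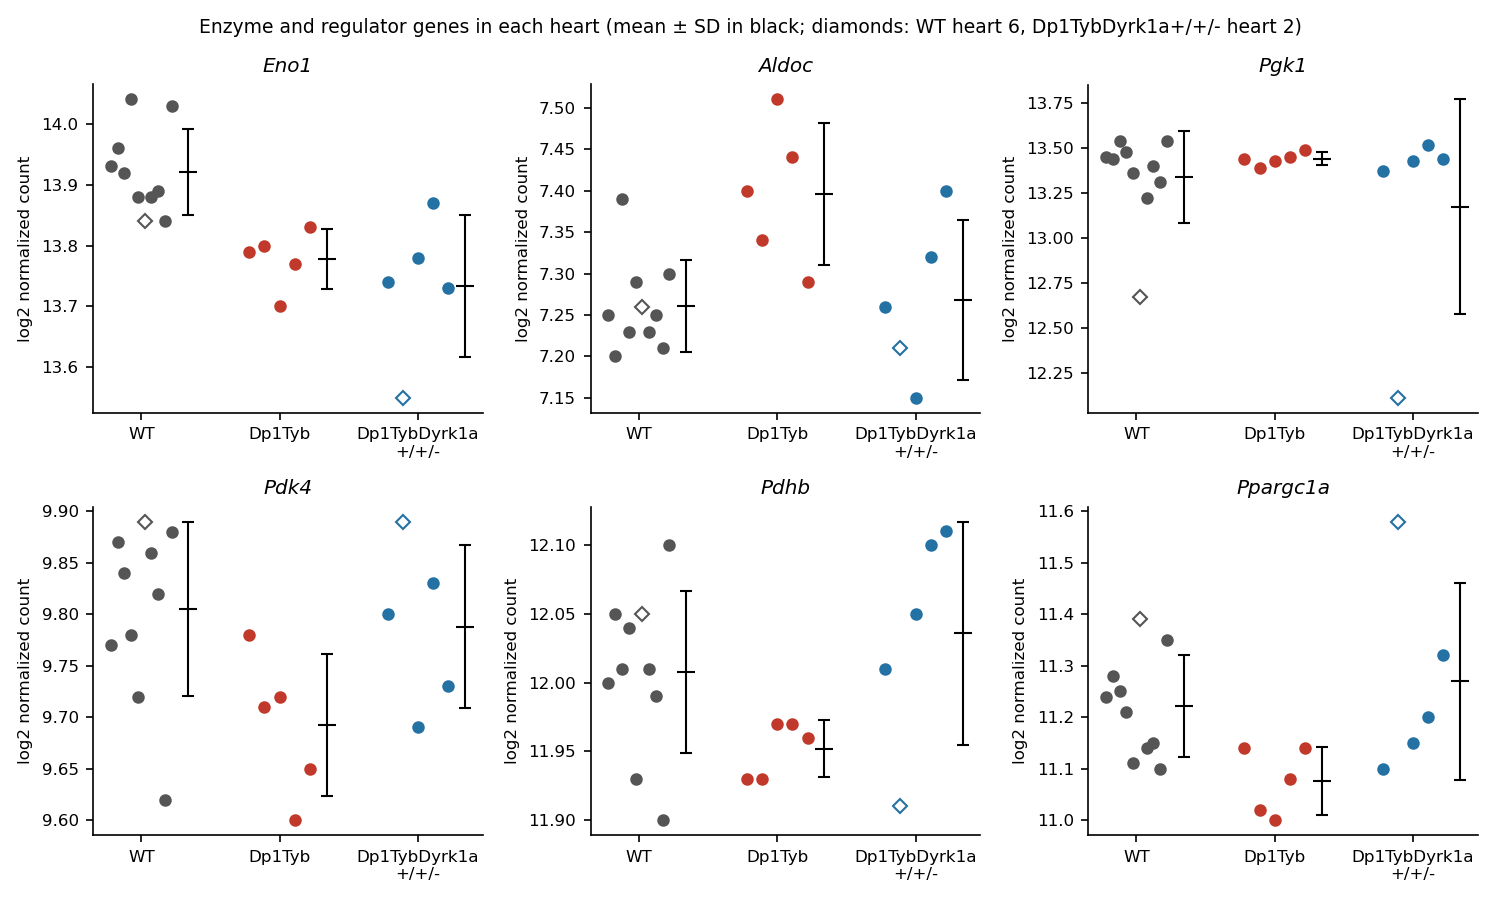
Log2 normalized count (y axis) of Eno1, Aldoc, Pgk1, Pdk4, Pdhb and Ppargc1a in each heart (points) by genotype, with the group mean and SD, and diamonds for WT heart 6 and Dp1TybDyrk1a+/+/- heart 2. All 5 Dp1Tyb hearts lie below all WT hearts for Eno1, and the 2 diamonds are the only low points for Pgk1.

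The ratio of 2 paralogues within a heart does not depend on a scaling factor of the library. A chosen set of 9 such pairs of members was compared in 3 comparisons by exact two-sided permutation tests over hearts. P-values were adjusted over the 27 tests, and other pairs, such as Pdk4 and Pdk1, were not tested. Of these 27 tests, 4 passed. The Eno3 minus Eno1 difference was -2.44 ± 0.038 (SD, n = 10) in WT, -2.23 ± 0.0521 (n = 5) in Dp1Tyb and -2.28 ± 0.171 (n = 5) in Dp1TybDyrk1a+/+/- hearts on the log2 scale. It read -2.22, -2.30, -2.15, -2.24 and -2.24 in Dp1Tyb hearts, all above the WT range of -2.51 to -2.39. That difference of 0.21 from WT had the smallest P that these groups allow (exact permutation P = 0.000333, adjusted P = 0.00899). In Dp1TybDyrk1a+/+/- hearts it read -2.25, -2.54, -2.29, -2.26 and -2.06, so 4 of 5 hearts were above and heart 2 was below every WT heart. The difference of 0.16 passed (exact permutation, adjusted P = 0.0382), and without the 2 libraries it was 0.222 (adjusted P = 0.0189). The call was lost with lane as a covariate (0.195, adjusted P = 0.0648), under quantile normalization (0.165, adjusted P = 0.0607), and with any of 9 single hearts left out, where the difference was as low as 0.109 (adjusted P up to 0.0918). This pair contains Eno1, so it is not separate from the Eno1 result above.

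Pfkm relative to Pfkl was higher in Dp1TybDyrk1a+/+/- than in WT hearts by 0.11 (exact permutation P = 0.002, adjusted P = 0.018). It read -0.35, -0.33, -0.36, -0.41 and -0.31, and 4 of these 5 values lay above the WT range of -0.54 to -0.38. Without Dp1TybDyrk1a+/+/- heart 5 the call was lost (0.0949, exact permutation, adjusted P = 0.0629). In Dp1Tyb hearts, which read from -0.50 to -0.41, the difference from WT was 0.01 (adjusted P = 0.901), and the mutant groups differed by -0.10 (adjusted P = 0.0612). Ldhb relative to Ldha was lower in Dp1Tyb than in WT hearts by 0.11 (exact permutation P = 0.00167, adjusted P = 0.018), with -1.81, -1.88, -1.79, -1.87 and -1.86 against -1.82 to -1.66. Of the 5 Dp1Tyb hearts, 3 lay below every WT heart. In Dp1TybDyrk1a+/+/- hearts the difference from WT was -0.05 (adjusted P = 0.319). Aldoc relative to Aldoa was higher in 4 of 5 Dp1Tyb hearts than in every WT heart, and the difference of 0.16 missed the threshold (exact permutation, adjusted P = 0.0521). The pairs Slc2a4 and Slc2a1, Hk2 and Hk1, Pfkp and Pfkm, Pgam2 and Pgam1, and Cpt1b and Cpt1a passed in no comparison.

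**Figure D5:**
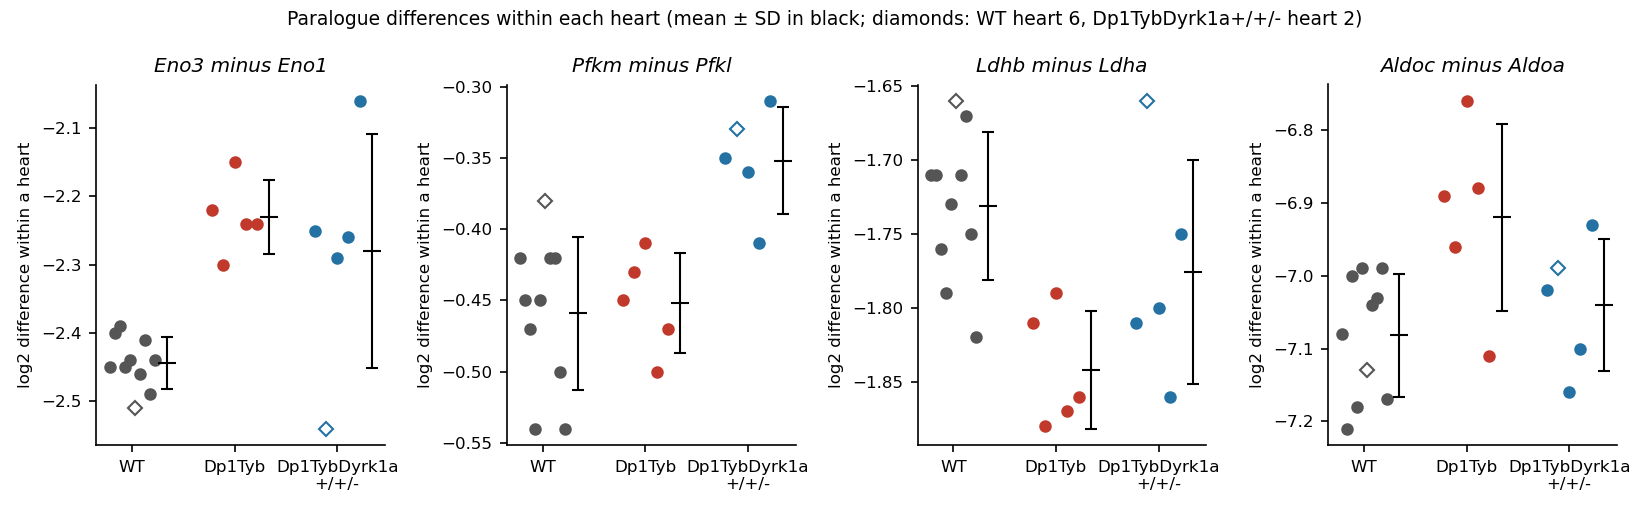
Difference of log2 values between 2 paralogues within each heart (y axis) by genotype, for Eno3 minus Eno1, Pfkm minus Pfkl, Ldhb minus Ldha and Aldoc minus Aldoa, with group mean and SD and diamonds for WT heart 6 and Dp1TybDyrk1a+/+/- heart 2. For Eno3 minus Eno1 all 5 Dp1Tyb hearts lie above the WT range of -2.51 to -2.39.

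Pyruvate entry and the TCA cycle had 0 of 16 genes past the threshold in all 3 comparisons (limma), and its members lay mostly on one side of 0 where Dp1Tyb hearts were compared. The median log2 difference was -0.0274 in Dp1Tyb against WT with 13 of 16 genes below 0, 0.00203 in Dp1TybDyrk1a+/+/- against WT with 7 of 16, and -0.0298 in Dp1Tyb against Dp1TybDyrk1a+/+/- with 14 of 16. Of all genes tested, 51.5%, 52.6% and 48.0% lay below 0 in the same order. Without the 2 libraries the medians were -0.0339, 0.0415 and -0.0559, and 16 of 16 genes were below 0 in the last comparison, beside 49.9% of all genes tested. The mean log2 value over the 16 genes ranged from 11.929 to 12.118 in WT, 11.968 to 12.031 in Dp1Tyb and 11.907 to 12.110 in Dp1TybDyrk1a+/+/- hearts, so the groups overlapped. The genes moved together between hearts. WT heart 9 was the lowest WT heart in 11 of the 16 genes (32 of all 53), and WT heart 10 the highest in 12 (29 of all 53). Counts of genes below 0, in this and the other pathways, are therefore not counts of independent observations.

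The medians of heart muscle markers had the same sign as those of that group, though single markers and hearts did not all follow. The 8 cardiomyocyte markers had a median difference of -0.101 in Dp1Tyb against WT, 0.0721 in Dp1TybDyrk1a+/+/- against WT and -0.117 in Dp1Tyb against Dp1TybDyrk1a+/+/-, and the 6 fibroblast and cushion markers had 0.0852, -0.0262 and 0.144. In the same order 5, 2 and 7 of the 8 cardiomyocyte markers lay below 0, and 0, 4 and 0 of the 6 fibroblast and cushion markers. With all hearts none of these 14 markers passed the threshold, and all 14 had passed the filter on low values. Without the 2 libraries the medians between the mutant groups were -0.0998 and 0.181, with 8 of 8 cardiomyocyte markers below 0. Of the 14 markers only Tnnt2, cardiac troponin T, then passed (-0.21, limma adjusted P = 0.0332), where 3.96% of all genes tested did. The log2 of the summed cardiomyocyte markers ranged from 18.21 to 18.66 in WT, 18.16 to 18.42 in Dp1Tyb and 18.28 to 18.57 in Dp1TybDyrk1a+/+/- hearts, and that of the fibroblast markers from 16.56 to 17.10, 16.89 to 17.12 and 16.61 to 17.13. Dp1TybDyrk1a+/+/- heart 2 had the highest cardiomyocyte sum of its group (18.57) and the lowest mean of the TCA genes of all hearts (11.907). The part of the markers in the values of the TCA genes was not tested.

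Among the pyruvate dehydrogenase kinases, Pdk4 ranged from 9.62 to 9.89 in WT hearts (median 9.83). It read 9.78, 9.71, 9.72, 9.60 and 9.65 in Dp1Tyb hearts and 9.80, 9.89, 9.69, 9.83 and 9.73 in Dp1TybDyrk1a+/+/- hearts. Only 1 Dp1Tyb heart lay below the WT range, and the difference of -0.11 ± 0.0412 (SE) had an adjusted P of 0.16 (limma). Pdk1 had differences of -0.04, -0.01 and -0.03 in the 3 comparisons. Of the pyruvate dehydrogenase subunits, Pdhb read 11.93, 11.93, 11.97, 11.97 and 11.96 in Dp1Tyb hearts and 12.01, 11.91, 12.05, 12.10 and 12.11 in Dp1TybDyrk1a+/+/- hearts. The 2 groups overlap through heart 2 of the latter: the difference of -0.08 ± 0.0379 (adjusted P = 0.242) became -0.12 without the 2 libraries and still missed the threshold (adjusted P = 0.0516). The remaining hearts did not overlap, which then holds for 5.33% of all genes in that direction. The other subunits, Pdha1 and Dlat, had differences between -0.04 and 0.04, and between -0.08 and 0.07 without the 2 libraries.

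In the cycle itself, Cs, citrate synthase, ranged from 13.29 to 13.49 in WT hearts, and its differences were -0.02, -0.01 and -0.01. The 3 subunits of the NAD-dependent isocitrate dehydrogenase, Idh3a, Idh3b and Idh3g, had differences of -0.03, -0.07 and -0.07 in Dp1Tyb against WT hearts (adjusted P = 0.858, 0.293 and 0.539). Idh3g read 11.54 in WT heart 6 and 11.57 in Dp1TybDyrk1a+/+/- heart 2 and at most 11.35 in the other Dp1TybDyrk1a+/+/- hearts. The difference of -0.10 between Dp1Tyb and Dp1TybDyrk1a+/+/- hearts (adjusted P = 0.295) was -0.05 without both. The oxoglutarate dehydrogenase subunits Ogdh and Dlst, the succinyl-CoA ligase subunits Sucla2 and Suclg1, fumarase Fh1, and Mdh1 and Mdh2 had differences between -0.06 and 0.05 in all 3 comparisons. Without the 2 libraries these ran from -0.09 to 0.05, and between the mutant groups Fh1 had -0.09, Sucla2 -0.08 and Mdh1 -0.06 (0.05 with all hearts).

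Fatty acid oxidation likewise had 0 of 18 genes past the threshold in all 3 comparisons (limma). The medians were -0.002 in Dp1Tyb against WT with 9 of 18 genes below 0, -0.0386 in Dp1TybDyrk1a+/+/- against WT with 15 of 18, and 0.0431 in Dp1Tyb against Dp1TybDyrk1a+/+/- with 5 of 18. The shares of all genes tested were 51.5%, 52.6% and 48.0%. Without the 2 libraries they were -0.0119, -0.0035 and 0.00618, with 10 of 18 below 0 in the second comparison and 9 of 18 in the last. The lean in both comparisons with Dp1TybDyrk1a+/+/- hearts thus rested on them.

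Fatty acids enter through Cd36, the translocase of the cell surface, which ranged from 10.90 to 11.14 in WT hearts (median 11.05). It read 11.18, 11.08, 11.13, 11.09 and 11.10 in Dp1Tyb hearts, and its difference from WT was 0.08 ± 0.0416 (adjusted P = 0.399). Of these, 1 Dp1Tyb heart was above the WT range. Fabp3 had a difference of -0.09 ± 0.0485 (adjusted P = 0.41) in the same comparison. In the carnitine shuttle, Cpt1a had 0.00, -0.04 and 0.04 in the 3 comparisons and Cpt1b -0.01, -0.05 and 0.04, and Slc25a20, the carnitine carrier of the inner membrane, had 0.08 ± 0.0389 in Dp1Tyb against WT (adjusted P = 0.367).

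The acyl-CoA dehydrogenases open each round of beta-oxidation for very long (Acadvl), long (Acadl), medium (Acadm) and short (Acads) chains. Acads ranged from 9.79 to 10.18 in WT hearts, with heart 6 as the lowest. It read 10.11, 10.15, 10.15, 10.16 and 10.17 in Dp1Tyb hearts and 10.09, 9.44, 10.06, 10.15 and 10.06 in Dp1TybDyrk1a+/+/- hearts. Heart 2 stands alone in the last group, and the difference of 0.19 ± 0.096 between the mutant groups (adjusted P = 0.296, limma) was 0.06 without the 2 libraries. Acadvl showed the same in these hearts, with 10.34 in WT heart 6 and 10.07 in Dp1TybDyrk1a+/+/- heart 2 and a difference of 0.14 between the mutant groups (adjusted P = 0.341) that became 0.04. Hadha, Hadhb, Hadh, Echs1, Acaa2, Acadl, Acadm, Cpt2 and Acsl1, which activate, cut and carry the acyl chains, had differences between -0.08 and 0.08 in all 3 comparisons.

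The regulators of the program were Ppara and its coactivator Ppargc1a, which also drives mitochondrial biogenesis. Ppara ranged from 6.04 to 6.21 in WT hearts (median 6.09) and read 6.03, 5.98, 6.05, 6.06 and 6.02 in Dp1TybDyrk1a+/+/- hearts. Of these, 3 lay below the WT range, and the difference of -0.08 ± 0.0294 had an adjusted P of 0.355 (limma). Ppargc1a ranged from 11.10 to 11.39 in WT hearts (median 11.22). It read 11.14, 11.02, 11 (to 2 decimals), 11.08 and 11.14 in Dp1Tyb hearts and 11.10, 11.58, 11.15, 11.20 and 11.32 in Dp1TybDyrk1a+/+/- hearts. Of the Dp1Tyb hearts, 3 were below every WT heart. The differences of -0.15 ± 0.062 from WT (adjusted P = 0.252) and -0.20 ± 0.0716 from Dp1TybDyrk1a+/+/- hearts (adjusted P = 0.153) were -0.13 (adjusted P = 0.0691) and -0.12 (adjusted P = 0.179) without the 2 libraries.

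Other genes of these pathways were examined in the same fit. Of 25 further glycolysis genes, 30 further TCA genes and 43 further fatty acid genes tested, 0 passed the threshold in any of the 3 comparisons (limma), beside the shares of all genes above. Their medians in Dp1Tyb against WT hearts were 0.0244, 0.00191 and -0.00244. Without the pair of libraries, 2 of 25, 2 of 30 and 3 of 43 passed in Dp1Tyb against WT, where 7.7% of all genes did: Slc16a7, Suclg2 and Oxct1 were lower, and G6pc3, Ogdhl, Acad11 and Acaa1a were higher. Of 20 hypoxia-induced genes outside metabolism 0 passed with all hearts, with a median of 0.0185 in Dp1Tyb against WT, and 1 passed there without the pair (P4ha1, 0.12, adjusted P = 0.0316).

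Of 31 genes that regulate these pathways, 2 passed in Dp1Tyb against WT hearts (Gabpa and Sirt1) where 3.08% of all genes did, 1 passed in Dp1TybDyrk1a+/+/- against WT hearts (Gabpa) where 0.712% did, and 0 passed between the mutant groups. Gabpa, a subunit of the GA-binding protein that drives many mitochondrial genes, lies in the duplication and is present in 3 copies in both mutant groups. It had a mean of 11.24 in WT, 11.54 in Dp1Tyb and 11.68 in Dp1TybDyrk1a+/+/- hearts, and it was higher than in WT by 0.30 (limma adjusted P = 1.28e-05) and 0.44 (adjusted P = 3.15e-08). The mutant groups differed by -0.14 (adjusted P = 0.0853), and by -0.10 without the 2 libraries (adjusted P = 0.00985). Sirt1, a deacetylase that activates Ppargc1a protein, read 9.16, 9.20, 9.23, 9.14 and 9.25 in Dp1Tyb hearts, against 9.25 to 9.34 in WT hearts. It was lower in Dp1Tyb than in WT hearts by 0.09 ± 0.0225 (adjusted P = 0.0263), and the call was lost without Dp1Tyb heart 1, 2 or 4 (adjusted P up to 0.102). In Dp1TybDyrk1a+/+/- hearts, with values from 9.22 to 9.30, the difference from WT was -0.03 (adjusted P = 0.65).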

How the data were processed

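Libraries of 20 whole E13.5 mouse hearts were made with the KAPA mRNA HyperPrep kit and sequenced on an Illumina HiSeq, per the labels. Per the submitters' processing notes the reads were handled with Trimmomatic 0.36, STAR 2.5.2a and RSEM 1.2.31 on GRCm38, and with DESeq2. Their deposited table holds normalized counts that the authors put on a log2 scale across all 20 hearts. It runs from -2.31 to 18.97 and lists 48795 genes, 19473 of them at 0 throughout. The name of the transformation is not given in the sources used here. Values of weakly expressed genes lie close together, so their differences are likely to be understated. Differences of well expressed genes may be understated too. Dyrk1a and Gabpa, which are well expressed and lie in the duplication, differed between Dp1Tyb and WT hearts by less than the paper reports for such genes. The size of this effect was not tested. Read totals were not analysed here, so depth is unknown and precision rests on the spread between hearts. Library titles give lanes 3, 6 and 7, with 4, 4 and 2 WT, 2, 2 and 1 Dp1Tyb, and 1, 1 and 3 Dp1TybDyrk1a+/+/- hearts. No pair of hearts had identical values, and 0 columns were without a sample.

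The authors' DESeq2 test needs counts, so limma 3.58.1 in R 4.3.3 was used on the log2 values of 15304 genes whose normalized count averaged 10 or more (lmFit, eBayes with trend, 1 mean per genotype, Benjamini-Hochberg threshold 0.05). The labels do not say that the hearts of a group come from separate litters, so P-values measure the spread between these hearts. For paralogue pairs, hearts were regrouped in every way in a two-sided exact permutation test (3003 regroupings against WT with a smallest P of 0.000333, and 252 between mutant groups with a smallest P of 0.00794; scipy 1.17.1, numpy 2.4.6, pandas 2.3.3, Python 3.11.15). The fits were tested on simulated data. Gene names were those of GENCODE M39 (44565 genes named), and RefSeq coordinates and promoters were those of GRCm38.p6. Near-identical copies were found with blastn 2.17.0 at 97% identity over 300 bases or more, and 20 of the 53 genes had 1 or more.

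The members and lists were chosen with earlier results of these data known, so no test was made over a list. Members given with values were those past the threshold, the 3 of each pathway with the largest absolute difference, and the fixed members Slc2a1, Slc2a4, Hk1, Hk2, Pfkl, Pfkm, Pkm, Ldha, Ldhb, Pdk1, Pdk4, Cs, Cpt1a, Cpt1b, Cd36, Ppara and Ppargc1a. Aldoc, Idh3b, Fabp3 and Slc25a20 were added after their values were seen, and other members were named to account for all 53. Of the other lists, genes past the threshold with all hearts were named. A result for 1 gene of those lists is not reported here. Alternatives were other filters, normalizations, limma settings, weights per heart, lane as a covariate, single lanes, the hearts of 2 genotypes only, and each heart left out.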

Additional observations from a re-analysis of the deposited data

Results flagged for a closer look

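Of 195 groups of hearts tested for 1 value far from the rest of its group, 24 were picked out. Chance gives about 1 in 20 where groups are independent. These groups were not, since they hold the same hearts and genes that moved together. Dp1TybDyrk1a+/+/- heart 2 was the one apart in 15 of them. It was the lowest of its group in log2 value for Hk2 (10.70), Pfkm (11.14), Pgk1 (12.11), Pgam2 (11.46), Eno3 (11.01), Idh3a (12.01), Mdh1 (13.03), Cpt1b (11.47), Slc25a20 (9.41), Acadvl (10.07), Acads (9.44), Hadhb (11.55) and Echs1 (10.03), and for the difference Hk2 minus Hk1 (-1.94). It was the highest for Gabpa (11.85). WT heart 6 was the lowest WT heart for Pgk1 (12.67), Acadvl (10.34) and Echs1 (10.37), and the highest for Idh3g (11.54), Acsl1 (9.97) and Gabpa (11.39). The remaining values were Aldoc in WT heart 3 (7.39, the highest WT heart), Slc2a4 in Dp1Tyb heart 4 (8.85, the lowest of its group) and Hadhb in Dp1Tyb heart 2 (11.89, the lowest of its group). What sets WT heart 6 and Dp1TybDyrk1a+/+/- heart 2 apart was not tested.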

How the results depend on the processing

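No paired analysis was possible because the labels give no replicate numbers, and those used here only name hearts in their listed order. No value past its threshold changed sign. The number of members past the threshold in Dp1Tyb versus WT, 0 with all hearts, was 1 with lane as a covariate (Aldoc), 2 with the hearts of the 2 genotypes only, 4 with weights per heart (Aldoc, Eno1, Pdk4 and Ppargc1a), 2 without WT heart 6 and Dp1TybDyrk1a+/+/- heart 2, and 0 to 2 with any 1 heart left out (2 without Dp1TybDyrk1a+/+/- heart 2). In Dp1TybDyrk1a+/+/- versus WT it was 1, and 0 under median centring (Eno1 adjusted P = 0.052, limma), lane as a covariate (0.0752) and the hearts of the 2 genotypes only (0.122), and 0 to 1 with 1 heart left out. In Dp1Tyb versus Dp1TybDyrk1a+/+/- it was 0, and 1 with weights per heart (Pdhb).

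Single lanes hold few hearts and gave other medians. In lane 6 these were 0.0901 (TCA) and 0.0519 (fatty acid oxidation) for Dp1TybDyrk1a+/+/- versus WT, and -0.044 (glycolysis), -0.0976 (TCA) and -0.0307 (fatty acid oxidation) for Dp1Tyb versus Dp1TybDyrk1a+/+/-, and in lane 7 the last was 0.107. Of the paralogue pairs, Slc2a4 minus Slc2a1 in lane 6 was 0.116 for Dp1TybDyrk1a+/+/- versus WT and -0.187 between the mutant groups. Pfkp minus Pfkm in lane 3 was -0.0213 and 0.0111, and Eno3 minus Eno1 in lane 6 was 0.388 and -0.139, for the same comparisons. Between the mutant groups Pfkm minus Pfkl was -0.146 in lane 6 and Aldoc minus Aldoa -0.00749 in lane 3. Cpt1b minus Cpt1a was -0.124 in lane 7 for Dp1Tyb versus WT and 0.1 in lane 6 for Dp1TybDyrk1a+/+/- versus WT.

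Quantile normalization brought Pfkm minus Pfkl between the mutant groups (-0.112) and Aldoc minus Aldoa in Dp1Tyb versus WT (0.124) past the threshold (exact permutation, adjusted P = 0.0429 and 0.0382). It took Eno3 minus Eno1 in Dp1TybDyrk1a+/+/- versus WT below it (0.165, adjusted P = 0.0607), as did lane as a covariate (0.195, adjusted P = 0.0648). With 1 heart left out that difference ran from 0.109 to 0.229 and was lost without WT heart 1, 4, 6, 7 or 10 or Dp1TybDyrk1a+/+/- heart 1, 3, 4 or 5. Pfkm minus Pfkl in the same comparison ran from 0.0949 to 0.121 and was lost without Dp1TybDyrk1a+/+/- heart 5 (exact permutation, adjusted P = 0.0629), and Aldoc minus Aldoa in Dp1Tyb versus WT ran from 0.124 to 0.21. The cause of these changes was not tested. Depth is unknown, so it sets no limit that can be given here.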

Other observations

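Among genes of the same pathways that are not members, the values without WT heart 6 and Dp1TybDyrk1a+/+/- heart 2 added some past the threshold, where 7.7% of all genes passed in Dp1Tyb versus WT, and these genes were named after that result was seen. In Dp1Tyb versus WT hearts Slc16a7, a monocarboxylate transporter, was lower by 0.10 (limma adjusted P = 0.0164) and G6pc3, a glucose-6-phosphatase, was higher by 0.09 (adjusted P = 0.0441). Suclg2, the GTP-forming subunit of succinyl-CoA ligase, was lower by 0.09 (adjusted P = 0.0188), and Ogdhl, a paralogue of the oxoglutarate dehydrogenase subunit, was higher by 0.13 (adjusted P = 0.0422). Acaa1a, a peroxisomal thiolase, was higher by 0.12 (adjusted P = 0.00213), Acad11 was higher by 0.09 (adjusted P = 0.0154), and Oxct1, which starts the use of ketone bodies, was lower by 0.08 (adjusted P = 0.0445). With all hearts the adjusted P-values of these 7 genes ran from 0.0655 (Acad11) to 0.307 (Acaa1a). In Dp1Tyb versus Dp1TybDyrk1a+/+/- hearts Ogdhl was higher by 0.17 (adjusted P = 0.0423), where 3.96% of all genes passed.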
